A study of Mus musculus with 27 samples.

Results

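ProT cells were compared 12 h and 6 h after 4-hydroxytamoxifen, with 3 RNA sequencing libraries at each time, taken as the 6 libraries of these 2 times among the 27 of the series. ProT is a mouse T cell precursor line in which, per the labels, tamoxifen induces the transcription factor TAL1 by way of the recombinase CreER and LoxP sites. Both times therefore carried the same construct and had received the same agent, and their labels differed in time only. The series is about TAL1 and PI3K signalling in leukaemia of T cell precursors, and its other libraries are 12 from mouse thymus and 9 from ProT cells at 0, 18 and 24 h. The 0 h libraries entered only an alternative fit. The libraries used here include none without tamoxifen at 12 h or at 6 h, so the time since TAL1 induction and the time in culture cannot be told apart. Whether the 3 libraries of each time were separate cultures is not said in the labels, so p-values here measure the spread among these samples only, and that spread may be technical. In libraries made from many cells, a change in the share of cells with a transcript and a change in transcript per cell cannot be told apart either.

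Early T cell precursors draw energy from glycolysis, in which glucose enters through GLUT transporters and is split stepwise to pyruvate and lactate. Many of its enzymes are known targets of hypoxia-inducible factors, whose alpha subunits are destroyed by prolyl hydroxylases of the EGLN family when oxygen is plentiful. Sterol synthesis is switched on by SREBP factors when membranes run low in cholesterol. NOTCH1 signals drive commitment to the T lineage, and TAL1 acts with LMO2, LDB1 and E proteins in a complex that is silenced as T cells mature.

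The libraries held 6599146, 6279107 and 4649416 counts in genes at 12 h, against 5961536, 4884871 and 4820586 at 6 h. Of 18 markers chosen for an early T cell line, Cd4 with 1 count, Cd8a with 2 counts and Ptcra with 27 counts over the 6 libraries were close to absent. Lck stood at 222 to 258 CPM (counts scaled to library size, with edgeR's TMM factors), Bcl11b at 291 to 365 CPM, Tcf7 at 214 to 319 CPM and Kit at 224 to 343 CPM. Levels were lower for Rag1 (6.55 to 13.1 CPM), Cd3e (5.81 to 12.3 CPM) and Rag2 (1.81 to 2.9 CPM). T lineage markers other than Ptcra were thus present, some at low levels, and Cd4 and Cd8a were not. The log2 CPM of 6 h library 1 correlated as closely with 12 h library 1 (Pearson r = 0.979 across genes) as the closest libraries of 1 time did. It correlated less closely with 6 h libraries 2 and 3 (0.970 and 0.971). The library of 12 h with the same number, 1, also differed from its group. Mitochondrial mRNA took 5.18% of counts in 12 h library 1 and 5.54% in 6 h library 1, against 6.71% to 7.77% in the others. LincRNA genes took 8.57% in 12 h library 1, against 5.47% and 5.19% in 12 h libraries 2 and 3. A batch shared by number was not tested. Reads in no annotated feature made up 19.4%, 18.8% and 19.2% at 12 h, against 19.9%, 22.1% and 22.6% at 6 h. Reads that aligned more than once made up 13.4%, 15.4% and 14.7% at 12 h, against 12.8%, 12.7% and 13.1% at 6 h. Both shares separated the times (exact permutation p = 0.1 each, two-sided, the smallest that 3 against 3 can give). Protein-coding genes of the nucleus took 64.3%, 65.8% and 64.9% of counts at 12 h, against 65.3%, 54.8% and 56.2% at 6 h (exact permutation p = 0.3), so 6 h library 1 lay with the 12 h libraries. The part of these shares in the results was not tested.

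Of 21 tested glycolysis genes 13 rose at 12 h and none fell, of 17 hypoxia-response genes 8 rose and none fell, and of 34 sterol and lipid synthesis genes 6 fell and 1 rose. Of 13171 genes tested, 596 (4.53%) passed an adjusted p of 0.05 in edgeR's quasi-likelihood test. Among them, 302 genes (2.29%) were higher and 294 (2.23%) were lower at 12 h. A change of at least 1 on the log2 scale was found for 69 higher genes (0.524%) and 110 lower genes (0.835%). The median absolute log2 fold change was 0.74 for the higher genes and 0.90 for the lower genes, against 0.23 over all genes tested. Protein-coding genes made up 85.4% of the higher and 73.1% of the lower genes, against 78.9% of all tested. Median exon length was 2864 bases for the higher and 4484 bases for the lower genes, against 3795 bases over all tested. With scaling by library size only, 411 genes passed and 65.5% of them were higher. The count rested on single libraries: it was 1419 without 6 h library 1, 127 without 6 h library 2, 210 without 6 h library 3, 152 without 12 h library 2 and 268 without 12 h library 3. Leaving out 1 library gave 10 to 15 higher glycolysis genes. It left 3 higher hypoxia genes without 12 h library 3 or 6 h library 2 and 5 without 6 h library 3, and 2 lower sterol and lipid genes without 12 h library 2 or 6 h library 2 and 3 without 12 h library 3.

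**Figure D1:**
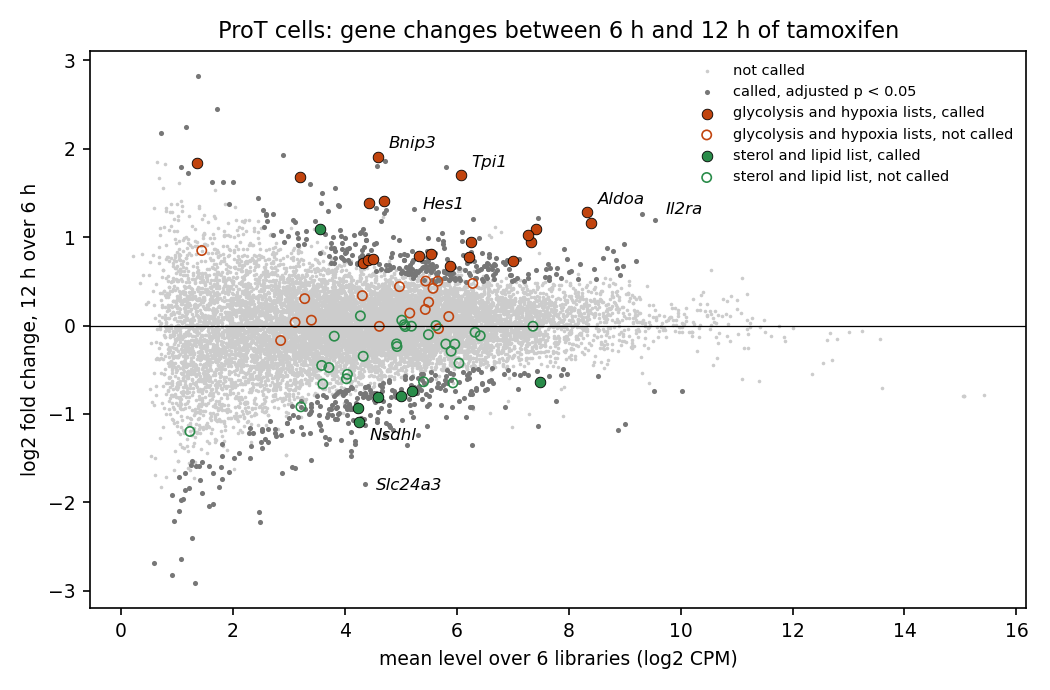
Log2 fold change of 12 h over 6 h (vertical axis) against the mean level over the 6 libraries (horizontal axis, log2 CPM), with 1 point for each of 13171 tested genes. Filled orange points of the glycolysis and hypoxia lists all lie above 0, and the filled green points of the sterol and lipid list lie below 0 except Abcg1.

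Tal1 (chromosome 4, 115056426 to 115071755, GRCm38) is the gene that tamoxifen was used to induce. It had 2278, 2267 and 1800 CPM at 12 h, against 3052, 3675 and 3092 CPM at 6 h. The times did not overlap, and every 12 h library was below every 6 h library. The log2 fold change was -0.63 ± 0.20 (SE), and the adjusted p of 0.0728 missed the threshold. Without 6 h library 1 the adjusted p was 0.0236. A TAL1 transcript whose sequence differs from the mouse gene may not have been counted, and the labels do not name the species of the induced sequence. Of the 17 tested members of the TAL1 complex list, 2 fell and none rose. Lmo2 (chromosome 2, 103957986 to 103981878), which encodes the LIM-only bridge between TAL1 and LDB1, had 3.51, 4.52 and 4.98 CPM at 12 h, against 10.04, 10.5 and 9.94 CPM at 6 h. It fell by 1.24 on the log2 scale (adjusted p = 0.0118), without overlap between the times. Ldb1, the dimerising adaptor of the complex, averaged 70.7 ± 9.97 CPM at 12 h and 102 ± 9.28 CPM at 6 h (SD, n = 3 each, log2 fold change -0.52, adjusted p = 0.0432). The Lmo2 call was lost without 12 h library 2 (adjusted p = 0.0575) or 6 h library 2 (0.0624). The Ldb1 call was lost without 12 h library 2 (0.249), 12 h library 3 (0.0942), 6 h library 2 (0.174) or 6 h library 3 (0.21), and with scaling by library size only (0.197). The E protein Tcf3 had a log2 fold change of -0.02, and none of the 6 tested E protein and ID genes passed.

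Of the 50 gene lists, glycolysis had the most called members: 13 of 21 tested members rose and none fell. The list had a median log2 fold change of 0.81, against -0.0016 over all genes tested, and its summed level was 2344, 2345 and 2435 CPM at 12 h, against 1455, 1073 and 1062 CPM at 6 h. Of the 21 members, 15 had every 12 h library above every 6 h library, which held for 11.9% of all genes tested. The count ranged from 10 to 16 over the other settings, and no setting gave a lower member. Slc2a1 (chromosome 4, 119108711 to 119137983) encodes the glucose transporter GLUT1. It had 23.6, 28.8 and 41.3 CPM at 12 h, against 12.0, 9.39 and 14.0 CPM at 6 h (log2 fold change 1.39 ± 0.22, adjusted p = 0.00106). The transporter Slc2a3 (GLUT3) was at 4.05 ± 1.02 CPM at 12 h and 1.07 ± 0.528 CPM at 6 h (log2 fold change 1.84, adjusted p = 0.0252). Its call was lost without 12 h library 2 or 3 (adjusted p = 0.0978 and 0.105) or 6 h library 2 or 3 (0.158 and 0.0689).

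Among the enzymes that prime and split glucose, Pfkl, the liver-type phosphofructokinase, had 43.0, 38.6 and 31.1 CPM at 12 h, against 14.7, 11.9 and 15.8 CPM at 6 h (log2 fold change 1.41 ± 0.18, adjusted p = 0.000206). Aldoa (chromosome 7, 126795234 to 126800751), the aldolase that splits the sugar in its middle, had 477, 448 and 449 CPM at 12 h, against 235, 164 and 165 CPM at 6 h. Its log2 fold change was 1.28 ± 0.16 (adjusted p = 0.000149). Tpi1 (chromosome 6, 124810586 to 124814296), the triosephosphate isomerase, had 91.6, 104 and 114 CPM at 12 h, against 40.6, 27.9 and 25.5 CPM at 6 h. With a log2 fold change of 1.70 ± 0.17, Tpi1 was among the genes with the smallest adjusted p of the comparison (2.69e-05). For each of these 3 enzymes the times did not overlap, and for Aldoa and Tpi1 the highest 6 h library was library 1. Pfkp (log2 fold change 0.79) and the isomerase Gpi1 (0.73) also passed. Pfkp was lost without 6 h library 2 (adjusted p = 0.0849), and Gpi1 without 12 h library 2 (0.0613) or 6 h library 2 or 3 (0.0531 and 0.0752).

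The enzymes that yield ATP and lactate followed the same direction. Pgk1, the phosphoglycerate kinase, had 183, 209 and 229 CPM at 12 h, against 124, 86.3 and 93.8 CPM at 6 h (log2 fold change 1.02 ± 0.16). Pkm, the pyruvate kinase of dividing cells and muscle, had 478, 464 and 452 CPM at 12 h, against 280, 175 and 165 CPM at 6 h (1.16 ± 0.18). Ldha, the lactate dehydrogenase subunit, had 216, 227 and 252 CPM at 12 h, against 137, 91.6 and 96.5 CPM at 6 h (1.09 ± 0.16). None of the 3 genes overlapped between the times, and 6 h library 1 was the highest 6 h library each time. The adjusted p was 0.000706 for Pgk1, 0.000766 for Pkm and 0.000547 for Ldha. Pgam1 (log2 fold change 0.94) and Eno1 (0.81) rose as well. Pdk1, the kinase that shuts pyruvate dehydrogenase, averaged 94.4 ± 13.3 CPM at 12 h and 54.9 ± 0.79 CPM at 6 h (log2 fold change 0.78 ± 0.14, adjusted p = 0.00352).

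The members that did not pass included the hexokinase genes Hk1 and Hk2, whose products phosphorylate incoming glucose. Hk2 had 91.0 ± 10.1 CPM at 12 h and 65.2 ± 12.5 CPM at 6 h (log2 fold change 0.48, adjusted p = 0.0848). Gapdh, a glycolytic dehydrogenase, had 10.8 ± 2.21 CPM at 12 h and 10.4 ± 0.575 CPM at 6 h (log2 fold change 0.06). Several of these genes share near-identical stretches with other gene copies (at least 95% identity over 200 bases). Eno1 did so with 3 other genes, Bnip3, Ldha and Pgk1 with 2 each, and Tpi1, Pkm, Pgam1 and Gpi1 with 1 each, so their levels are uncertain. The copies Eno1b (log2 fold change 1.27, adjusted p = 0.00106) and Pgk1-rs7 (0.99, adjusted p = 0.00139) rose too. Slc2a1, Aldoa and Pfkl had no such copy. The search for copies did not cover Gapdh, Hk1 or Hk2. Reads with more than 1 alignment were counted in no gene, so the low level of Gapdh is uncertain too.

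**Figure D2:**
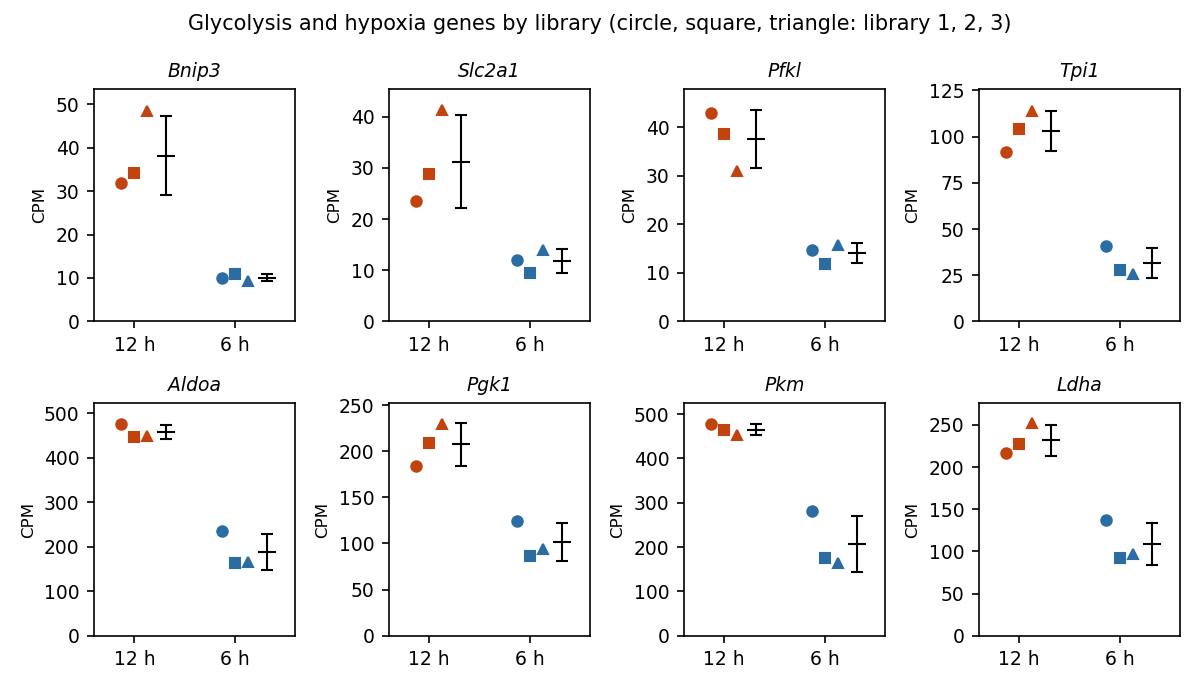
CPM of 8 glycolysis and hypoxia genes in each library, with 12 h left of 6 h; symbols mark libraries 1, 2 and 3, and bars give the mean and SD of 3 libraries. In each panel every 12 h library lies above every 6 h library, with Bnip3 at 31.8 to 48.5 CPM at 12 h and 9.26 to 10.99 CPM at 6 h.

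Of 17 tested hypoxia-response genes, 8 rose and none fell, with a median log2 fold change of 0.50. Bnip3 (chromosome 7, 138890836 to 138909519), a mitochondrial receptor that directs mitophagy, had 31.8, 34.3 and 48.5 CPM at 12 h, against 10.04, 10.99 and 9.26 CPM at 6 h. The times lay far apart, with a log2 fold change of 1.91 ± 0.20 (adjusted p = 2.69e-05), or 3.76-fold. Egln3, the oxygen-sensing prolyl hydroxylase that is itself a target of hypoxia-inducible factors, had 96.8, 90.8 and 114 CPM at 12 h, against 60.2, 47.9 and 48.3 CPM at 6 h (log2 fold change 0.94 ± 0.15, adjusted p = 0.000982). Ankrd37 (1.68), Vegfa (0.75), the collagen prolyl hydroxylase P4ha1 (0.75), the oxidase Ero1l (0.71) and the mitophagy receptor Bnip3l (0.68) also passed, and Pdk1, given above, belongs to this list too. Hif1a itself had 50.5, 47.2 and 53.9 CPM at 12 h, against 53.9, 46.0 and 55.1 CPM at 6 h, which overlap (log2 fold change -0.04, adjusted p = 0.921). Car9, a classic hypoxia marker, had a log2 fold change of 0.04. Bnip3, Egln3 and Pdk1 passed in every setting tried. The count was 3 without 12 h library 3 or 6 h library 2, where the adjusted p was 0.0679 and 0.0817 for Ankrd37, 0.0777 and 0.184 for Vegfa, 0.165 and 0.142 for P4ha1, 0.124 and 0.127 for Ero1l, and 0.0573 and 0.12 for Bnip3l. It was 5 without 6 h library 3, which ended the calls of P4ha1 (0.0984), Ero1l (0.219) and Bnip3l (0.0646), while P4ha1 was also lost without 12 h library 1 (0.067) or 6 h library 1 (0.0527), and Vegfa (0.0809) and Ero1l (0.129) without 12 h library 2.

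Promoters of these genes were read for ACGTG, the core letters of hypoxia response elements, on both strands. Windows ran from 250 bases before to 50 bases after the start of transcription, from RefSeq on GRCm38.p6. The letters occurred in 19.6% of 32851 windows and in 30.0% of the 8288 tested genes with a window. In the glycolysis list they stood in 6 of the 12 genes that rose and had a window, and in 7 of the 8 that did not pass. In the hypoxia list they stood in 5 of 6 genes that rose and 6 of 8 that did not pass. The match is a description of letters, and the same letters read on both strands as CACGTG are also an E-box. The windows of 3 genes that rose are shown, with matches in capitals: Bnip3 (chr7:138909457-138909756, minus strand), Pgk1 (chrX:106186850-106187149, plus strand) and Ldha (chr7:46845554-46845853, plus strand).
Bnip3: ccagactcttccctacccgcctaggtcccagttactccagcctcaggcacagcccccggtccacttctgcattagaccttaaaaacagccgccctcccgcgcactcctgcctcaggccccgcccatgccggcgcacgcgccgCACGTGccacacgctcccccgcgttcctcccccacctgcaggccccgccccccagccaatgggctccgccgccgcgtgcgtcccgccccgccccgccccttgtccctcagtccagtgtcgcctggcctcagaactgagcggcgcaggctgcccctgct
Pgk1: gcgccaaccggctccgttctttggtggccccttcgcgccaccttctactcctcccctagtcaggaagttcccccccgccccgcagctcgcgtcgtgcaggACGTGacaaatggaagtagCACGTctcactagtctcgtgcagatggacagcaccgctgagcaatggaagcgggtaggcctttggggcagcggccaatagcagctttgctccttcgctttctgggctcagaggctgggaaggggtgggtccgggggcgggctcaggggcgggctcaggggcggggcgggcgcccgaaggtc
Ldha: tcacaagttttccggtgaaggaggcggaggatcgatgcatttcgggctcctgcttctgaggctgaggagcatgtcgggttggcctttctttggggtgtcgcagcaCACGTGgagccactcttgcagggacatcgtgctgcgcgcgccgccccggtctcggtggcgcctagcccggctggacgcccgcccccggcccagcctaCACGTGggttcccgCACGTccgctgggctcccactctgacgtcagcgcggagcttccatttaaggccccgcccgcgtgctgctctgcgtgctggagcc
In Bnip3 the overlapping pair of matches began at bases -108 and -107 from the start, in Pgk1 the matches began at -150 and -131, and Ldha held 5 matches between -145 and -34.

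Of 34 tested sterol and lipid synthesis genes, 6 fell and 1 rose, 30 had a negative log2 fold change, and the median was -0.32. The genes that fell encode enzymes of the cholesterol pathway. Hmgcs1 (chromosome 13, 119690379 to 119708260), which makes the HMG-CoA that enters the pathway, had 160.0, 130.3 and 129.6 CPM at 12 h, against 264, 203 and 187 CPM at 6 h. It fell by 0.64 on the log2 scale (adjusted p = 0.021), and the times did not overlap. Further along the pathway Mvd fell by 0.94 and Fdps by 0.74. Nsdhl (chromosome X, 72918557 to 72958514), a sterol dehydrogenase, had 14.3, 11.8 and 10.8 CPM at 12 h, against 34.8, 22.7 and 20.8 CPM at 6 h. Its log2 fold change was -1.09 ± 0.21 (adjusted p = 0.00636). Dhcr7, a late reductase of the pathway, fell by 0.81. Abcg1, an exporter of cholesterol, had 16.2, 12.5 and 19.7 CPM at 12 h, against 9.42, 6.18 and 6.55 CPM at 6 h, and rose (log2 fold change 1.09, adjusted p = 0.0138). Srebf2, which encodes an SREBP factor (log2 fold change -0.65, adjusted p = 0.113), and the epoxidase gene Sqle (-0.01) did not pass.

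The number of lower sterol members was 2 without 12 h library 2 or without 6 h library 2, 3 without 12 h library 3, and 3 with scaling by library size only, against 10 with the replicate block or with more ProT libraries in the fit. Without 12 h library 2 the adjusted p was 0.0589 for Nsdhl, 0.0613 for Dhcr7 and 0.143 for Hmgcs1. Without 12 h library 3 it was 0.0665 for Mvd, 0.0905 for Fdps, 0.0938 for Hmgcs1 and 0.0672 for Abcg1. Without 6 h library 2 it was 0.0838 for Mvd, 0.124 for Fdps, 0.0788 for Hmgcs1 and 0.0969 for Abcg1, and single calls were lost without 6 h library 3 (Dhcr7 0.0584, Abcg1 0.068) or 12 h library 1 (Fdps 0.0655). The highest 6 h value of Hmgcs1, Mvd, Nsdhl and Fdps lay in library 1. The sterol regulatory element was searched as TCACNCCAC on both strands, which occurred in 1.24% of all windows and in 1.33% of tested genes with a window. It stood in 1 of 4 lower members with a window and in none of the 20 that did not pass. The window of Hmgcs1 is the only one of the list with the match (chr13:119690101-119690400, plus strand, match in capitals beginning at base -137).
Hmgcs1: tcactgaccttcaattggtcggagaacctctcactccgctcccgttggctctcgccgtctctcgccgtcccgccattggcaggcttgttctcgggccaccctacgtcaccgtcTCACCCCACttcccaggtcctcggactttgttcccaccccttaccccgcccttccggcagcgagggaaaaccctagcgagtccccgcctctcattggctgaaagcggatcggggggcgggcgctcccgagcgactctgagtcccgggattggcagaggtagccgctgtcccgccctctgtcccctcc

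Genes of NOTCH signalling rose in 4 of 14 tested cases, and none fell. Without 6 h library 1, 7 were higher and 1 was lower. Hes1 (chromosome 16, 30064384 to 30067796), the repressor that NOTCH directly induces, had 116, 95.5 and 115 CPM at 12 h, against 57.5, 29.3 and 54.7 CPM at 6 h. It rose 2.3-fold without overlap (log2 fold change 1.201 ± 0.20, adjusted p = 0.00202). Il2ra (chromosome 2, 11642807 to 11693193), the alpha chain of the interleukin-2 receptor and a marker of early T cell precursors, had 1145, 982 and 987 CPM at 12 h, against 557, 286 and 519 CPM at 6 h. Its log2 fold change was 1.19 ± 0.21 (adjusted p = 0.00218), and 6 h library 2 was the lowest for both genes. Nrarp, a feedback inhibitor of NOTCH, had 24.2, 22.4 and 18.0 CPM at 12 h, against 9.42, 6.18 and 9.49 CPM at 6 h (log2 fold change 1.36). Its exons overlap the antisense gene Gm38287 over 79.4% of their length, and that gene had the same log2 fold change, so reads of the pair may not have been told apart.

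The receptor gene Notch1 averaged 115 ± 5.07 CPM at 12 h and 74.2 ± 8.68 CPM at 6 h (log2 fold change 0.64, adjusted p = 0.0123). It lost its call without 12 h library 2 (adjusted p = 0.068) or 6 h library 2 (0.127). Dtx1, another NOTCH target, had 36.3 ± 6.09 CPM at 12 h and 15.1 ± 8.31 CPM at 6 h, with an adjusted p of 0.0528. Hes5, a further target, did not pass (-1.05 on the log2 scale, adjusted p = 0.077). The letters TGGGAA, the core of RBPJ sites, occurred in 25.6% of windows, in none of the 3 NOTCH genes that rose and had a window, and in 3 of the 8 that did not pass. Myc, a NOTCH target in T cell leukaemia, had a log2 fold change of -0.28 and did not pass.

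Among cytokine receptors and their mediators, 3 of 32 rose and 2 fell. Socs2, a feedback inhibitor induced by STAT5, averaged 111 ± 7.78 CPM at 12 h and 69.7 ± 5.39 CPM at 6 h (log2 fold change 0.67, adjusted p = 0.00795), and Stat5b rose by 0.62 (adjusted p = 0.0242). Il21r, the interleukin-21 receptor, had 12.3, 10.9 and 9.12 CPM at 12 h, against 19.6, 21.8 and 24.6 CPM at 6 h. It fell by 1.01 on the log2 scale (adjusted p = 0.00618), with no overlap. The interleukin-18 receptor chain Il18r1 fell by 1.08 (adjusted p = 0.0293). The call of Socs2 was lost without 6 h library 2 (adjusted p = 0.0745). Stat5b missed the threshold without library 2 or 3 of either time (0.1 to 0.168), and Il18r1 without any library other than 6 h library 1 (0.0598 to 0.139).

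**Figure D3:**
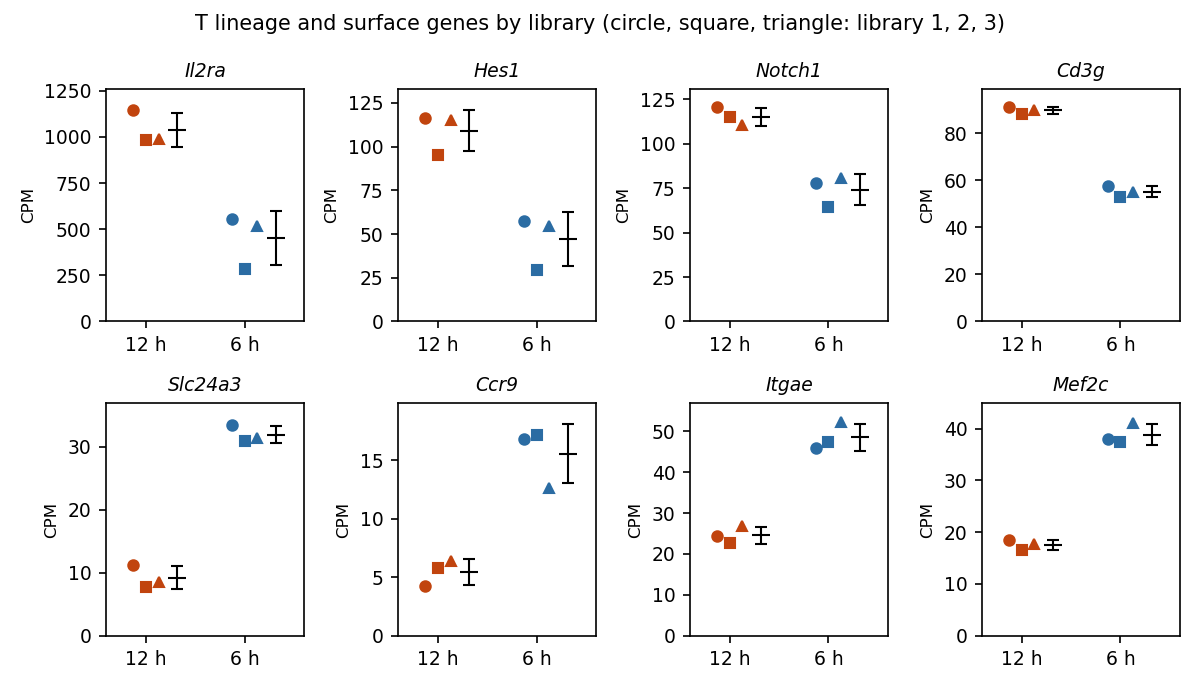
CPM of 8 T lineage and surface genes in each library, with 12 h left of 6 h; symbols mark libraries 1, 2 and 3, and bars give the mean and SD of 3 libraries. The upper 4 genes lie higher at 12 h in every library, and the lower 4 lie lower, with Slc24a3 at 7.79 to 11.3 CPM at 12 h and 30.9 to 33.5 CPM at 6 h.

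Of 19 transcription factors of T lineage commitment, 3 fell and none rose. Lef1 (chromosome 3, 131110471 to 131224356), a partner of beta-catenin, had 0.732, 1.25 and 0.207 CPM at 12 h, against 4.79, 3.44 and 4.07 CPM at 6 h. It fell by 2.40 on the log2 scale (adjusted p = 0.00775), at a low level. Tox, a DNA-binding factor of thymic selection, had 57.1, 50.5 and 47.7 CPM at 12 h, against 96.5, 113 and 86.5 CPM at 6 h (log2 fold change -0.93 ± 0.15, adjusted p = 0.00095). Neither gene overlapped between the times. Tox passed in every setting tried, and Lef1 in the 15 that gave it an adjusted p, since DESeq2 gave none. Ikzf1, which encodes Ikaros, averaged 189 ± 21.4 CPM at 12 h and 279 ± 6.85 CPM at 6 h (log2 fold change -0.56, adjusted p = 0.0254). That call was lost without library 2 or 3 of either time (adjusted p = 0.0664 to 0.177). The commitment factors Tcf7 (log2 fold change 0.18), Bcl11b (0.13) and Gata3 (0.21) did not pass.

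In the progenitor list 3 of 16 rose and 2 fell. Mef2c (chromosome 13, 83504034 to 83667080), a factor of immature T cell leukaemia, had 18.4, 16.5 and 17.6 CPM at 12 h, against 38.0, 37.3 and 41.1 CPM at 6 h. It fell by 1.15 on the log2 scale (SE 0.16, adjusted p = 0.000405), with narrow spread at both times. Erg, an ETS factor of blood stem cells, rose, with 28.0, 25.7 and 29.2 CPM at 12 h, against 15.4, 13.5 and 13.1 CPM at 6 h (log2 fold change 0.97 ± 0.18, adjusted p = 0.00359). Mycn (0.69) and Nfe2 (0.52) rose, and Lmo2, given above, fell. Mycn missed the threshold without any library other than 6 h library 1 (adjusted p = 0.0547 to 0.15), and so did Nfe2 (0.0659 to 0.183). Kit (-0.38) and Flt3 (-0.38) did not pass.

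Genes of T cell receptor signalling split, with 2 of 23 higher and 3 lower. The costimulatory receptor Cd28 had 23.6, 22.1 and 31.1 CPM at 12 h, against 44.0, 49.7 and 42.2 CPM at 6 h. It fell by 0.83 (adjusted p = 0.00644) without overlap, and the zeta chain Cd247 by 0.54 (adjusted p = 0.021). The gamma chain Cd3g rose, with 91.3, 88.3 and 90.0 CPM at 12 h, against 57.6, 52.9 and 55.1 CPM at 6 h (log2 fold change 0.70 ± 0.13, adjusted p = 0.00489). Rasgrp1, an activator of RAS, rose too (0.66, adjusted p = 0.0288). Without 6 h library 2 the adjusted p was 0.0579 for Cd28, 0.108 for Cd247, 0.0512 for Cd3g and 0.195 for Rasgrp1. Without 12 h library 2 it was 0.0677 for Cd28, 0.103 for Cd247 and 0.151 for Rasgrp1. Rasgrp1 was also lost without 12 h library 1 (0.0594), and Cd247 without 12 h library 3 (0.0694) or 6 h library 3 (0.0719). Exons of Cd247 overlap those of Pou2f1 over 56.4% of their length, so its counts are uncertain.

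Surface receptors for homing and adhesion fell in 3 of 18 cases and rose in 1. Ccr9 (chromosome 9, 123678439 to 123784330), the receptor for the thymic chemokine CCL25, had 4.25, 5.76 and 6.43 CPM at 12 h, against 16.8, 17.2 and 12.7 CPM at 6 h. It fell by 1.52 on the log2 scale (SE 0.25, adjusted p = 0.00117), which is 2.87-fold. Itgae (CD103), an integrin that binds E-cadherin, had 24.4, 22.6 and 26.7 CPM at 12 h, against 46.0, 47.4 and 52.2 CPM at 6 h. It fell by 0.98 (adjusted p = 0.000829), and neither gene overlapped between the times. The neighbouring gene Lztfl1, whose product moves cargo in cilia, fell by 1.35 (adjusted p = 0.00127), with 39.1, 38.0 and 53.5 CPM at 12 h, against 74.1, 134 and 124 CPM at 6 h. A further tested gene, Gm17200, shares small parts of the exons of both (2.62% of Ccr9 and 4.39% of Lztfl1). The leukocyte integrin Itgb2 (-0.57) fell, and it missed the threshold without any library other than 6 h library 1 (adjusted p = 0.0678 to 0.18). Cd24a, a glycoprotein of immature thymocytes that is not in this list, had 291, 295 and 348 CPM at 12 h, against 187, 162 and 164 CPM at 6 h (log2 fold change 0.86, adjusted p = 0.00141).

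Cell division genes leaned upward with small steps. All 42 tested genes of the mitosis list had a positive log2 fold change, with a median of 0.41, and 7 passed. Birc5 (survivin), a subunit of the complex that corrects spindle attachment, had 122.8, 120.1 and 119 CPM at 12 h, against 77.5, 70.1 and 63.3 CPM at 6 h (log2 fold change 0.78 ± 0.14, adjusted p = 0.0024). Ccnb2 (0.72), Kif4 (0.74), Kif11 (0.61), Ccna2 (0.61), Top2a (0.57) and Cdk1 (0.56) were the other members that rose. In the replication list 5 of 42 rose, with a median of 0.35. E2f2, an activator of S phase genes, had 71.6, 72.3 and 68.6 CPM at 12 h, against 46.5, 33.7 and 30.7 CPM at 6 h (log2 fold change 0.93 ± 0.16, adjusted p = 0.00193), and Rrm2, Slbp, Tyms and Pcna passed as well. The mitosis count was 1 without 12 h library 2, 6 h library 2 or 6 h library 3, 3 without 12 h library 1 or 3, and 15 without 6 h library 1. The replication count was 1, 2 and 1 without 12 h library 2, 6 h library 2 or 6 h library 3, 2 without 12 h library 3, and 14 without 6 h library 1. Birc5 and E2f2 passed in every setting tried, and each of the other called members of both lists was lost in 1 or more of these fits. Tyms shared near-identical stretches with 12 other genes, Slbp with 3, and Pcna, Ccna2 and Kif4 with 1 each, so their levels are uncertain.

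The retinoblastoma gene Rb1, which holds E2F factors in check, had 148, 159 and 162 CPM at 12 h, against 223, 306 and 319 CPM at 6 h, and fell by 0.85 (adjusted p = 0.00268). Lpar6, a lysophosphatidic acid receptor that lies inside Rb1 on the other strand, had 328, 324 and 322 CPM at 12 h, against 505, 832 and 772 CPM at 6 h, and fell by 1.11 (adjusted p = 0.00103). Exons of Rb1 overlap 7.56% of those of Lpar6, so part of the reads may have been lost or not told apart. The cyclin Ccnd1 fell by 0.87 (adjusted p = 0.0222), a call that was lost without 12 h library 2 or 3 (adjusted p = 0.0776 and 0.0939) or 6 h library 1 or 2 (0.0634 and 0.0889). Exons of Ccnd1 overlap those of Oraov1 over 23.4% of their length, so its counts are uncertain.

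Chaperones of the endoplasmic reticulum rose in 5 of 20 cases, with a median log2 fold change of 0.38. Pdia6, a disulfide isomerase, averaged 143 ± 12.2 CPM at 12 h and 88.6 ± 8.39 CPM at 6 h (log2 fold change 0.69, adjusted p = 0.00688). Xbp1, the factor of the unfolded protein response, averaged 121 ± 11.4 CPM at 12 h and 75.8 ± 5.41 CPM at 6 h (0.68, adjusted p = 0.00775). Calr, Hsp90b1 and Hspa5 passed as well. None of the 5 passed without 6 h library 2, and the count was 1 without 6 h library 3, 2 without 12 h library 2 and 3 without 12 h library 1 or 3. Subunits of oxidative phosphorylation encoded in the nucleus rose in 4 of 33 cases (Atp5j, Ndufa9, Ndufb3 and Ndufc1), with a median of 0.26, and none passed without 12 h library 2 or 6 h library 2. Their count was 1 without 12 h library 3 or 6 h library 3, against 6 without 12 h library 1 and 9 without 6 h library 1. All 13 mRNAs of the mitochondrial genome had a negative log2 fold change. Their summed level overlapped between the times, with 50050, 65630 and 74920 CPM at 12 h, against 51020, 80750 and 84470 CPM at 6 h. Their share of counts averaged 6.55% at 12 h and 6.84% at 6 h (exact permutation p = 0.8). Of the 13, mt-Nd5 (-0.74, adjusted p = 0.0345) passed. It had 844, 706 and 784 CPM at 12 h, against 892, 1497 and 1510 CPM at 6 h. Its call was lost without library 2 or 3 of either time (adjusted p = 0.11 to 0.217).

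No member passed in several lists of broad cell functions. None of 34 ribosome biogenesis genes, 38 ribosomal protein genes, 23 p53 targets, 12 BCL2 family genes, 26 genes of the ATF4 and amino acid response, 20 aminoacyl-tRNA synthetases or 15 circadian genes passed in edgeR's test. At an unadjusted p under 0.05 these lists had 1, 4, 3, 3, 5, 0 and 4 members, in that order, and DESeq2 called 1 ribosome biogenesis gene, 1 ribosomal protein gene and none of the others. Of all 13171 genes tested, 4.53% passed and 2620 had an unadjusted p under 0.05 in edgeR's test. The absence of calls in lists of this size is near that share and is no result about these functions. Median log2 fold changes of these lists lay between -0.18 for the circadian and 0.12 for the synthetase genes. Of 22 interferon response genes Isg20, an RNA exonuclease, rose, with 29.6, 38.5 and 32.8 CPM at 12 h, against 14.5, 9.62 and 15.6 CPM at 6 h (log2 fold change 1.33, adjusted p = 0.000563).

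Of 23 immediate early and MAPK feedback genes, Klf4 rose, and Egr1, the phosphatase gene Dusp6 (log2 fold change -0.84) and Klf6 (-0.57) fell. Of 16 heat shock and chaperone genes, the cochaperone Dnajb4 fell, with 27.4, 24.8 and 27.4 CPM at 12 h, against 42.8, 58.2 and 46.5 CPM at 6 h (-0.89, adjusted p = 0.00274), and Hsp90aa1 rose (0.68). Hsp90aa1 shared near-identical stretches with 3 other genes, so its level is uncertain. Of 17 mature T cell genes, Cd69 (-0.88) and Gimap6 (-0.82) fell and 1 rose. Single members rose among MHC class I presentation (Psmb10, 0.65, of 14), NF-kB (Nfkb1, 0.62, of 15) and translation factor genes (Eif4ebp1, 0.61, of 25), and Mxd3 (0.57) rose beside Mycn among 11 genes of the MYC network. Single members fell among epigenetic regulators (Tet3, -0.74, of 24), lysosome and autophagy genes (Ctss, -0.77, of 27) and redox genes (Gclc, -0.49, of 19). Of all genes tested 2.29% were called higher and 2.23% lower, so a single call in a list of this size is near that share and is no result about the list. Apart from Dnajb4 and Nfkb1, each of the calls named here was lost without 12 h library 2 (adjusted p = 0.0596 for Tet3 to 0.217 for Klf6), and most were also lost without another library. Nfkb1 was lost without 12 h library 3 (0.159), 6 h library 2 (0.158) or 6 h library 3 (0.0765).

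**Figure D4:**
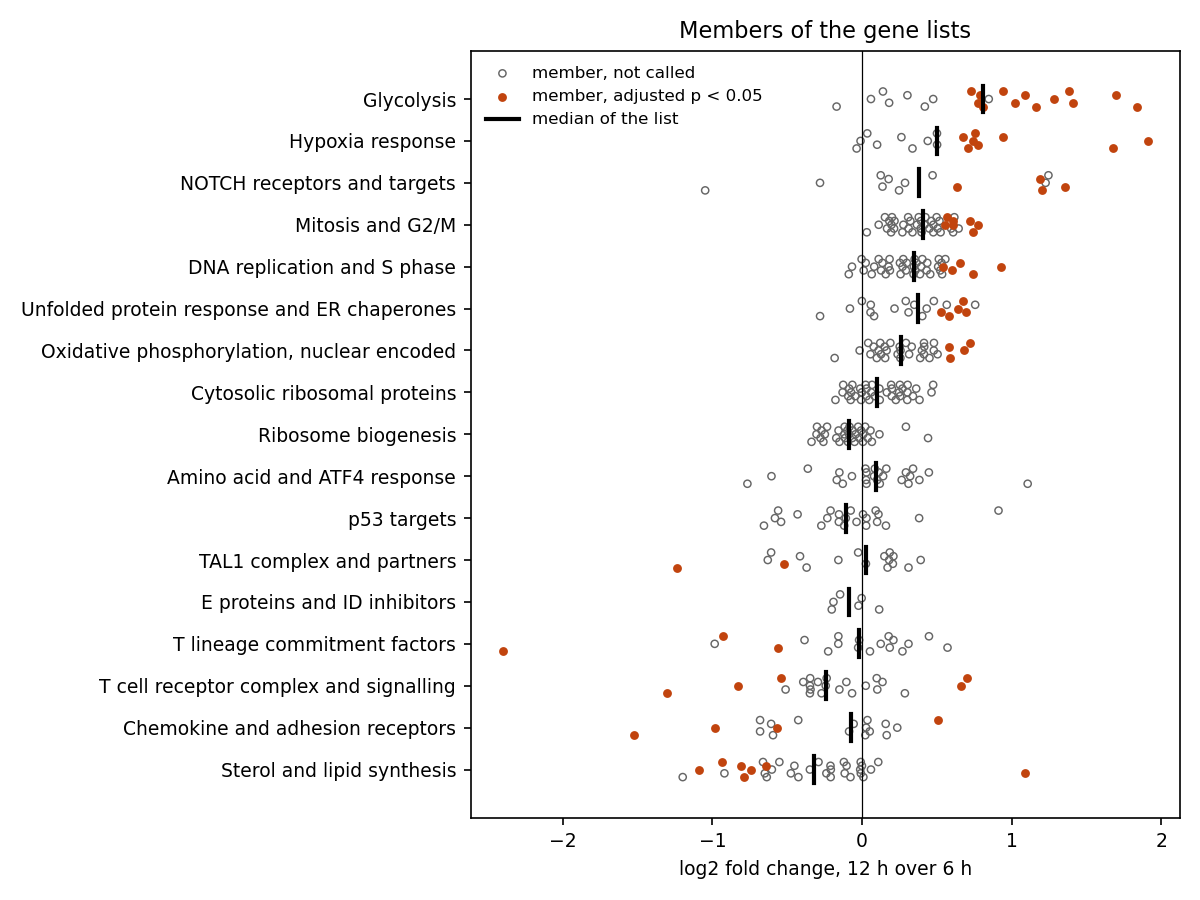
Log2 fold change of 12 h over 6 h (horizontal axis) for each tested member of 17 gene lists (rows); filled points passed an adjusted p of 0.05, open points did not, and bars mark the median of the list. Glycolysis has the highest median (0.81) and sterol and lipid synthesis the lowest (-0.32) of the lists drawn.

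Among called genes at a mean of at least 10 CPM, without overlap and without gene models or pseudogenes, the largest rise after Bnip3 was that of Podxl (chromosome 6, 31519488 to 31563981), a sialomucin of blood progenitors and vessels. It had 36.5, 40.8 and 46.9 CPM at 12 h, against 14.8, 8.02 and 10.4 CPM at 6 h, a log2 fold change of 1.86 ± 0.20 (adjusted p = 2.69e-05). Fam169b had 31.8, 35.5 and 44.0 CPM at 12 h, against 12.5, 8.93 and 9.71 CPM at 6 h (1.81). Aldh1b1, a mitochondrial aldehyde dehydrogenase, had 93.4, 81.3 and 87.1 CPM at 12 h, against 36.9, 16.0 and 20.8 CPM at 6 h (1.80). The times did not overlap for any of the 3 genes. The metabolic genes Grhpr (1.56), a glyoxylate reductase, and Apip (1.38), an enzyme of methionine salvage, also stood among the 12 largest rises, as did the serpin gene Serpina3g (1.49, uncertain for its near copy Serpina3i) and the mitochondrial calcium channel subunit Ccdc109b (1.597). The Ccdc109b call was lost without 12 h library 2 (adjusted p = 0.0677) or 6 h library 2 (0.0531).

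Slc24a3 (chromosome 2, 145167754 to 145642166), a sodium, calcium and potassium exchanger, had the largest fall under the same conditions. It had 11.3, 7.79 and 8.50 CPM at 12 h, against 33.5, 30.9 and 31.4 CPM at 6 h, which is 3.46-fold lower (log2 fold change -1.79 ± 0.19, adjusted p = 2.69e-05). Cd63, a tetraspanin of late endosomes, had 11.4, 8.41 and 7.26 CPM at 12 h, against 25.8, 25.4 and 25.1 CPM at 6 h (-1.48). Nlrc3, a negative regulator of innate signalling, had 22.98, 25.7 and 21.98 CPM at 12 h, against 47.9, 59.8 and 60.5 CPM at 6 h (-1.24). The 12 h libraries lay below the 6 h libraries for all 3 genes. Phactr2 (-1.41), the membrane-shaping adaptor Baiap2 (-1.35), the giant scaffold protein gene Ahnak (-1.34), Parp3 (-1.29), the G protein regulator Rgs10 (-1.29) and the chemokine Ccl9 (-1.26) were among the 12 largest falls, as were Ccr9 and Lztfl1. Of the genes named here only Ccl9 lost its call in any setting, without 6 h library 2 (adjusted p = 0.0969).

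Markers of other cell types were measured beside these groups. Gzma, a granzyme of killer and innate-like T cells, had 693, 1028 and 962 CPM at 12 h, against 375, 327 and 416 CPM at 6 h, and rose (log2 fold change 1.26 ± 0.18, adjusted p = 0.000392). Of 9 tested NK and innate lymphoid markers, 1 rose and 1 (Klrb1c) fell, and the summed list was 1257 to 1581 CPM at 12 h and 847 to 1002 CPM at 6 h. The sum was higher through Gzma, since the other 8 tested members summed to 563.2, 553.0 and 612.5 CPM at 12 h, against 618.0, 518.5 and 584.2 CPM at 6 h. Of the 9 members 6 had a negative log2 fold change, and the median was -0.19. Tcrg-C1, a constant gene of the T cell receptor gamma chain, had 709, 718 and 576 CPM at 12 h, against 359, 295 and 404 CPM at 6 h (0.92, adjusted p = 0.00268), and Tcrg-C2 rose by 0.74 (adjusted p = 0.00829). Tcrg-C1 shares long stretches with Tcrg-C3, so its counts are uncertain. Of 8 tested gamma-delta genes, 2 rose and 1 (Cd163l1) fell, and Trdc had a log2 fold change of 0.12. The summed gamma-delta list was 2217 to 2446 CPM at 12 h and 1495 to 1743 CPM at 6 h. Of 4 tested megakaryocyte and mast cell markers, Itga2b (1.002) and Cpa3 (0.64) rose, while Pf4, Gp9, Fcer1a and Tpsb2 were too low to test, and the sum was 482 to 487 CPM at 12 h and 291 to 334 CPM at 6 h.

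B cell markers summed to 16.8 to 20.3 CPM at 12 h and 24.4 to 31.2 CPM at 6 h, with Ighm lower (-0.99) and Pax5, Ebf1 and Cd79a too low to test. Myeloid markers summed to 51.4 to 68.4 CPM at 12 h and 62.4 to 77.2 CPM at 6 h, and none of 6 tested passed. Dendritic markers summed to 45.3 to 64.0 CPM at 12 h and 62.6 to 64.4 CPM at 6 h, with 1 of 7 called (Irf8, -1.04). Of 5 tested erythroid markers Tfrc fell (-0.56), with sums of 490 to 602 CPM at 12 h and 505 to 549 CPM at 6 h. Thy1, which T cells also express, rose in the fibroblast list (0.69), whose sums were 425 to 460 CPM at 12 h and 340.5 to 415 CPM at 6 h. Neither of 2 endothelial markers passed (68.4 to 92.2 CPM at 12 h, 95.8 to 110 CPM at 6 h), and no thymic epithelial marker was high enough to test. The part of other cell types in the results was not tested. Without 12 h library 2 the adjusted p was 0.067 for Klrb1c, 0.0792 for Itga2b, 0.067 for Cpa3, 0.0705 for Ighm, 0.14 for Irf8, 0.129 for Tfrc, 0.0567 for Thy1 and 0.0604 for Cd163l1. Without 6 h library 2 it was 0.0994 for Tcrg-C2 and above 0.05 for all of these markers except Itga2b, Gzma and Tcrg-C1.

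Levels of the same genes at 18 h and 24 h, in libraries the comparison did not use, were set beside them without a test (CPM scaled over the 12 tamoxifen libraries). Bnip3 averaged 10.2 ± 0.85 CPM at 6 h, 38.4 ± 8.80 at 12 h, 24.4 ± 8.46 at 18 h (SD, n = 3 each), and its 3 libraries held 9.06, 10.4 and 10.6 CPM at 24 h. Tpi1 averaged 31.8, 104, 80.3 and 56.6 CPM at these 4 times, and Slc2a1 12.0, 31.4, 20.6 and 13.8 CPM. These 3 genes had their highest mean at 12 h, and at 24 h the means of Bnip3 and Slc2a1 lay within 1 SD of those at 6 h. Hmgcs1 averaged 221, 141, 202 and 171 CPM and had its lowest mean at 12 h. Il2ra stayed high at later times, with 460, 1050, 896 and 1120 CPM, as did Hes1, with 47.8, 110, 109 and 106 CPM. Slc24a3 stayed low, with 32.3, 9.26, 10.5 and 9.84 CPM, and so did Mef2c, with 39.3, 17.7, 15.4 and 18.0 CPM. The early response gene Egr1, whose fall at 12 h (log2 fold change -1.73, adjusted p = 0.0184) was lost without 12 h library 2 or 3 (0.116 and 0.067) or 6 h library 1 (0.0594), averaged 5.48 CPM at 6 h, 1.63 at 12 h, 81.5 at 18 h and 18.1 at 24 h.

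**Figure D5:**
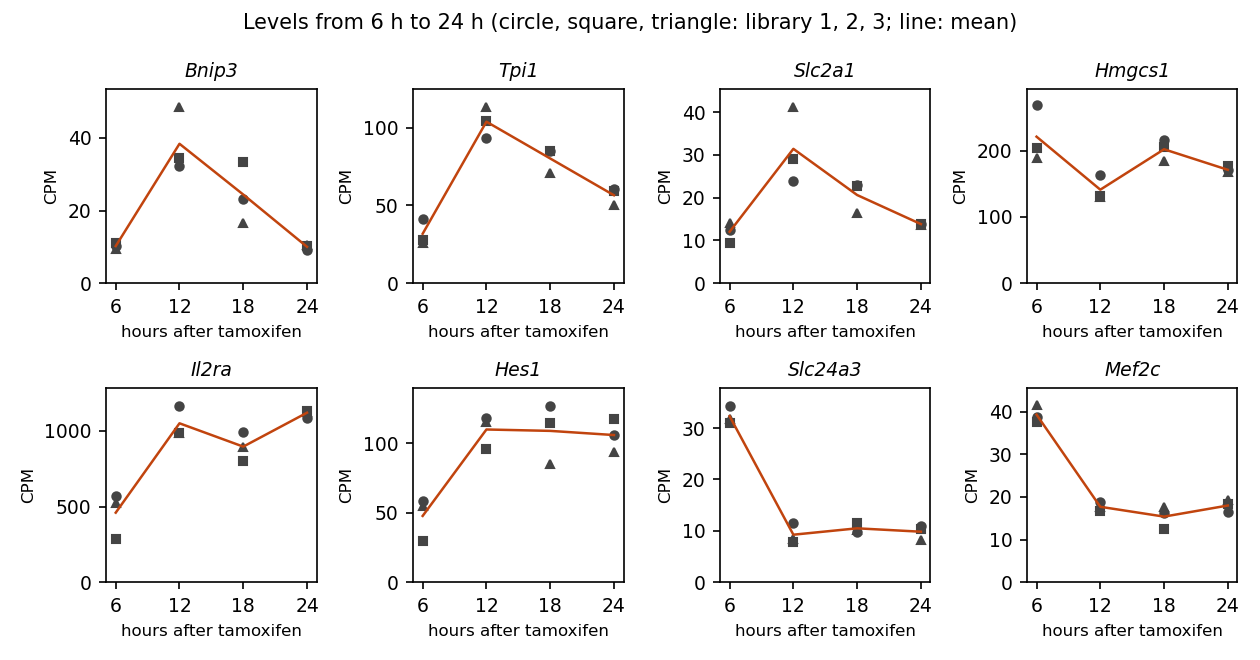
CPM of 8 genes in each library (symbols) and the mean of 3 libraries (line) at 6, 12, 18 and 24 h after tamoxifen. Bnip3, Tpi1 and Slc2a1 peak at 12 h, while Il2ra and Hes1 stay near their 12 h level and Slc24a3 and Mef2c stay low.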

How the data were processed

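Total RNA was taken with a Promega Maxwell kit and made into Illumina libraries, per the labels' protocols; RNA selection and strand are not given in the sources used here. The values are whole-number counts of reads per gene, deposited by the authors in 1 table of 15 ProT libraries. HISAT2, HTSeq, SAMtools and FastQC and the build mm10 or GRCm38 are named, per the submitters' processing notes, with versions and annotation not given in the sources used here. HTSeq set 3.33% to 4.38% of reads per library aside as ambiguous between genes, so overlapping genes may have lost reads, the more so if strand was not used. Reads with more than 1 alignment were counted in no gene.

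Of 46078 gene IDs, 45143 matched GENCODE M21 (GRCm38), and 27 symbols that had become dates were restored. The 5 HTSeq summary lines stayed out of library sizes; they include reads in no feature, 18.8% to 22.6% per library. The fit used the 6 libraries of 12 h and 6 h with edgeR 4.0.16 in R 4.3.3: genes were kept by filterByExpr, scaled by TMM and tested by the quasi-likelihood test with Benjamini-Hochberg adjustment at 0.05 over all 13171 genes, and the biological coefficient of variation was 14.7%. CPM values carry the TMM factors. Standard errors are the fold change over the square root of F. The test was checked on simulated data. Copies were found with BLAST 2.17.0. Socs2, Notch1 and Lztfl1 shared near-identical stretches with 2 other genes each, and Tox, Hsp90b1, Itgb2, Bnip3l and mt-Nd5 with 1 each. The levels of these genes are uncertain too.

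Named genes were Tal1, the 12 highest and 12 lowest log2 fold changes among called genes with mean CPM of at least 10 and no overlap, up to 4 called genes per list by adjusted p, every member of lists of up to 10 tested genes, and the 6 called genes with the highest CPM. Genes outside that rule are list members or were chosen after their values were seen. The members and lists were chosen with earlier results of these data known. Alternatives were DESeq2 1.42.0, RLE or library-size scaling, no filter or CPM of at least 1 in 3 libraries, more ProT libraries in the fit, a replicate block and leaving out each library. The thymus tables were not used, and the 0 h libraries entered only the fit of all 15 ProT libraries. Some genes of the lists are not reported here.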

Additional observations from a re-analysis of the deposited data

How the results depend on the processing

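Of the 596 called genes (302 higher, 294 lower, 179 at least 1 log2 apart, 106 list members), direction never reversed among the 104 called named genes; 42 of these kept their call in all 16 other settings, Lef1 in the 15 that gave it a value, and 61 lost it in at least 1. Fits with more libraries called more genes: with all 15 ProT libraries 1507 genes (768 higher, 739 lower, 276 at least 1 log2 apart, 199 list members) and with 12 tamoxifen libraries 1350 (685 higher, 665 lower, 186 list members). Without a filter on low counts 491 genes were higher, and with library size only 142 were lower. DESeq2 called 521 genes. Leaving out 1 library gave 127 to 1419 genes, 68 to 675 higher, 59 to 744 lower, 75 to 401 at least 1 log2 apart and 37 to 172 list members. Without both 6 h library 1 and 12 h library 3, an alternative chosen after seeing the data, 1398 genes passed (694 higher, 704 lower, 370 at least 1 log2 apart, 171 list members), and scaling on nuclear protein-coding genes, chosen likewise, gave 558. The cause of these shifts was not tested.

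With the replicate block 954 genes passed (506 higher, 448 lower), which include 595 of the 596. Deviations from the mean of each time correlated at 0.086, 0.108 and 0.017 between same-numbered libraries 1, 2 and 3. Between libraries of different numbers the correlations were all negative, from -0.089 to -0.006. Because each time was centred on its own mean, positive values at the same number force negative ones on balance elsewhere. These signs are therefore no separate result. The cut-off for pairs was 0.1, which only number 2 passed, so the main fit did not take the numbers as pairs. Whether same-numbered libraries shared a batch was not tested. Tal1 passed with the replicate block (log2 fold change -0.63, adjusted p = 0.00291), DESeq2 (-0.61, 0.00112), no filter (-0.60, 0.03), all 15 libraries (-0.63, 0.000947), 12 libraries (-0.63, 0.00278) and without 6 h library 1 (-0.68, 0.0236); leaving out 1 library gave -0.69 to -0.52.

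With 4649416 to 6599146 counts per library, genes near 1 CPM rest on few reads, and the design of 3 against 3 libraries cannot give an exact permutation p below 0.1 for a single value.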

Other observations

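Some gene families that were not lists themselves, chosen after their values were seen, held several called members. Some of these members also belong to the lists. Over all genes tested, 2.29% were called higher and 2.23% lower. Of 10 tested tubulin genes, which encode the subunits of microtubules, 7 rose, with a median log2 fold change of 0.67. Tubb4b had 99.1, 100.3 and 94.1 CPM at 12 h, against 64.3, 49.7 and 50.2 CPM at 6 h, without overlap (log2 fold change 0.83 ± 0.14, adjusted p = 0.00202 in edgeR's test). It passed in every setting tried, and it alone of the 7 kept its call without 12 h library 2, 6 h library 2 or 6 h library 3. The pseudogene Tubb4b-ps1 was called too, and Tubb4b was not searched for copies, so its level is uncertain. Of 23 centromere and NDC80 kinetochore genes, 7 rose, with a median of 0.31. Spc24, a subunit of the NDC80 complex that grips spindle microtubules, had 24.4, 24.3 and 22.6 CPM at 12 h, against 12.4, 13.5 and 11.7 CPM at 6 h (0.93, adjusted p = 0.00662). Of the 7, only Spc24 kept its call without 6 h library 2, Spc24 and Kntc1 without 12 h library 2, and 4 without 12 h library 3 or 6 h library 3.

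Of 10 tested MHC class II genes and their regulators, 3 fell, none rose and 7 did not pass. Their log2 fold changes ran from -1.6 to 0.44 with a median of -0.05, so the family as a whole did not shift. H2-DMa, which encodes a chain of the peptide exchanger H2-M, had 16.1, 17.1 and 17.8 CPM at 12 h, against 37.2, 36.9 and 35.2 CPM at 6 h (log2 fold change -1.10 ± 0.16, adjusted p = 0.000563). H2-DMa kept its call in all 16 other settings. Its partner H2-DMb1 lost the call without 12 h library 2 (0.127), 6 h library 2 (0.136) or 6 h library 3 (0.0747), and the regulator gene Rfxank lost it in 7 settings, among them DESeq2 (0.0731) and each library left out except 6 h library 1. Il18rap, the second chain of the interleukin-18 receptor, had 14.3, 19.2 and 12.6 CPM at 12 h, against 32.1, 38.5 and 25.8 CPM at 6 h, and fell by 1.05 (adjusted p = 0.00415), a call that was lost without 6 h library 2 (0.0505). Of 4 constant genes of the T cell receptor gamma chain, 3 rose, among them Tcrg-C1 and Tcrg-C2, which were given above with the gamma-delta list. Tcrg-C3 had 49.8, 60.4 and 66.8 CPM at 12 h, against 24.9, 24.5 and 27.1 CPM at 6 h (1.21, adjusted p = 0.000206). Its counts are uncertain, since it shares long stretches with Tcrg-C1, which is also among the 3.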
